A study of Mus musculus with 3 samples.

Results

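*Ramp1*, *Ramp3* and *Calcrl*, 3 of the 32285 genes counted in single-cell RNA sequencing of tumor-infiltrating leukocytes (TILs), encode the parts of the receptors for calcitonin gene-related peptide (CGRP) and adrenomedullin. They were chosen by their measured levels, which had been seen to differ between lymphocyte classes and with time in the tumor, so those differences are described below without a test. For these 3 genes, tests are given only in 3 splits within classes that the rule for the choice did not use. The splits were themselves chosen with earlier results of these data known. Adrenergic receptor genes are not described here.

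CGRP is a neuropeptide released by sensory nerve endings. Its receptor is a complex of the G protein-coupled receptor CALCRL, made by *Calcrl*, with the single-pass protein RAMP1, which carries CALCRL to the cell surface and sets its preference for CGRP. With RAMP2 or RAMP3 in place of RAMP1, CALCRL responds mainly to adrenomedullin, a peptide best known from blood vessels. These receptors signal through Gs, adenylyl cyclase, cAMP and protein kinase A, and neither CALCRL nor a RAMP works as a receptor for these peptides alone. In lymphocytes cAMP is known to dampen activation, and CGRP is known to act on group 2 innate lymphoid cells and gamma-delta T cells at barrier tissues.

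The cells came from wild-type C57BL/6 Kaede mice, in which every cell carries the fluorescent protein Kaede, green until violet light makes it red, and all mice had received isotype control antibody. The labels name MC38-Ova cells, a colon adenocarcinoma line that makes ovalbumin, with 250000 cells injected under the skin of the flank, photoconversion on day 13 and sampling on day 15. Kaede-green (KG+) TILs had entered during the 48 h after photoconversion and made 2 libraries, Kaede-green 1 and Kaede-green 2, whereas Kaede-red (KR+) TILs had been present throughout and made 1 library, so no test between colors was possible. The sort kept CD45+ TER119- cells and removed CD11b+ NK1.1- myeloid cells. The values are counts of transcripts marked by unique molecular identifiers (UMIs) in 3′ libraries, as the authors deposited them, with totals of 87193225, 129438292 and 175848894 UMIs in Kaede-green 1, Kaede-green 2 and Kaede-red. After a filter of 1000 to 6000 genes and under 7.5% mitochondrial UMIs, 10000, 11078 and 10865 cells were kept, with median depths of 6628, 8512.5 and 12076 UMIs. Pairs of libraries shared only 20 to 36 barcodes.

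Classes were set by UMIs of a few gate genes. NK cells (8459) held at least 1 UMI of *Ncr1* and at most 1 of *Cd3e*, and 507 of them with at least 2 UMIs of *Rora* and none of *Eomes* were called ILC-like. Below, NK cells are the 7952 others, except where NK cells are fitted against CD8 T cells. T cells held at least 2 UMIs of *Cd3e*. CD8 T cells (10167), with *Cd8a* and *Cd8b1*, were divided into 3781 with *Havcr2*, which encodes the checkpoint receptor TIM-3, and 6386 without it. There were 1351 CD4 T cells with *Cd4* and without *Foxp3*, 2269 Treg cells with *Foxp3*, and 833 gamma-delta T cells. The last were gated on *Cd163l1* with at least 1 UMI of *Cd3e*, and since *Cd163l1* is known from the IL-17-making subset, they stand for a part of the gamma-delta T cells. In all, 9157 of the 31943 kept cells fell in no class. Classes overlap at their edges, since 467 cells met both the CD8 and the Treg gate, 278 the CD8 and the CD4 gate, and 154 the CD8 and the gamma-delta gate. Among markers, *Cd8a* stood at 246 UMIs per 1000000 UMIs of the class (written CPM) in the CD4 T cells, 191 CPM in the gamma-delta T cells and 136 CPM in the Treg cells. The ILC-like cells had *Il5*, from a list of group 2 innate lymphoid cell markers, at 0 CPM. *Areg*, of the same list, was higher in them than in *Eomes*+ NK cells (log2 1.53 ± 0.26, SE). The other markers of that list are not given for these cells. *Trbc2*, a T cell receptor gene, was at 407 CPM, with no level of another class beside it. No subtype of innate lymphoid cell was assigned. Stricter gates, which left out the overlapping cells, moved 10 of 21 class levels by more than their SD. They also asked for more UMIs of the gate genes, so the part of these mixtures alone was not tested.

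On GRCm38, the annotation places *Ramp1* (ENSMUSG00000034353) on the plus strand at chr1:91179822-91225196 and *Ramp3* (ENSMUSG00000041046) on the plus strand at chr11:6658521-6677475. *Calcrl* (ENSMUSG00000059588) lies on the minus strand at chr2:84330626-84425411. *Ramp3* overlaps the pseudogene *Gm11978* on the opposite strand, and the strand setting of the counting is not given in the sources used here. The 250 bases before each RefSeq start (GRCm38.p6) are printed because the genes follow different orders over the classes. RefSeq and the annotation above place some starts differently. A large part of the *Calcrl* window, chr2:84425267-84425411, therefore lies inside the gene as placed above, as does chr11:6658521-6658532 of the *Ramp3* window. Capitals mark the letters CAGGTG, the E-box bound by E proteins and ZEB factors, or their reverse complement.
Ramp1 promoter, chr1:91179572-91179821, plus strand: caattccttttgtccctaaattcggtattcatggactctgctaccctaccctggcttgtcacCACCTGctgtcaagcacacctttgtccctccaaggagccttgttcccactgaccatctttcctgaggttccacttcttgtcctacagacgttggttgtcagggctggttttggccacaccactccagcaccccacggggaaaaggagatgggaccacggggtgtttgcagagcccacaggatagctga
Ramp3 promoter, chr11:6658283-6658532, plus strand: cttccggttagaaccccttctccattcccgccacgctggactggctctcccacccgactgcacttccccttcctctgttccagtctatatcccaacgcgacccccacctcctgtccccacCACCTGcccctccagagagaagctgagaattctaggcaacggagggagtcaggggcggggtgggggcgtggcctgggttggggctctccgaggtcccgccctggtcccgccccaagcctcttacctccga
Calcrl promoter, chr2:84425267-84425516, minus strand: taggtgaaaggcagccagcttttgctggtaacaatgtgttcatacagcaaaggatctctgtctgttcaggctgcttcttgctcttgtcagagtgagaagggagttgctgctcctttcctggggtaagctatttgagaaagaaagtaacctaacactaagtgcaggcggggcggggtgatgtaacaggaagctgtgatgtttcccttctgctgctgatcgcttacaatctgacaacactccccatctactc

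The *Ramp3* window was the richest in G and C of these, with 65.2% and 13 CpG dinucleotides. Its GC content was above that of 83.0% of the 32851 mouse promoters. *Ramp1* had 54.0% and 4 CpG, *Calcrl* 48.4% and 3 CpG, and the median promoter 52.4% and 6 CpG. Both strands were searched for TGACGTCA, the cAMP response element (in 1.55% of promoters), its part TGACG (17.8%), AGGTCA, bound by ROR factors (14.0%), GGTGTGA, bound by T-box factors (3.33%), CAGGTG (17.2%), CCAAT (33.8%) and TATAAA (12.4%). TGACG lies within TGACGTCA, so these 2 searches overlap. *Ramp1* held CAGGTG from 188 to 183 bases before the start, and *Ramp3* held it from 130 to 125 bases before the start. None of the 7 was found in the *Calcrl* window. A match is only a match of letters, and binding was not measured.

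*Ramp1*, the CGRP-specific partner, was, of the 7 lymphocyte classes compared, highest in gamma-delta T and ILC-like cells and lowest in CD8 T cells. In gamma-delta T cells its levels were 180, 90.0 and 215 CPM, always given in the order Kaede-green 1, Kaede-green 2 and Kaede-red, with a mean of 162 ± 64.3 (SD, n = 3). In ILC-like cells it was 107, 105 and 115 CPM, a mean of 109 ± 5.46 (SD, n = 3). The gamma-delta libraries therefore spread widely around the tightly grouped ILC-like libraries, and the order of these neighbors does not exceed their spread.

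Treg cells came next in *Ramp1*, at 45.2, 49.5 and 38.2 CPM, with a mean of 44.3 ± 5.72 (SD, n = 3). CD4 T cells held 21.5, 22.0 and 23.9 CPM, and NK cells without the ILC-like cells 13.7, 18.0 and 13.6 CPM. No library of these classes overlapped its neighbor in the order. The CD8 T cells were lowest, with 13.0, 7.18 and 8.0 CPM in *Havcr2*+ cells and 8.54, 9.0 and 9.57 CPM in *Havcr2*- cells, which overlapped. From the lowest to the highest class mean the range was 17.9-fold. Between ILC-like cells and *Eomes*+ NK cells, the fitted log2 difference was 3.04 ± 0.14 (SE), and this contrast was part of the choice of genes.

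Outside the compared classes, the 359 cells gated on *Siglech*, a marker of plasmacytoid dendritic cells, were as rich in *Ramp1*, at 167, 157 and 149 CPM, with *Ramp3* at 1.47, 7.47 and 0.88 CPM. *Ramp1* differed little over the limit of the NK gate. The 7065 NK cells with no *Cd3e* UMI stood at 14.9 CPM in *Ramp1*, and the 887 with 1 *Cd3e* UMI, which lie just inside the gate, at 13.8 CPM. For *Ramp3* these values, over the libraries summed, were 5.05 and 7.91 CPM, and for *Calcrl* 5.19 and 3.99 CPM. By library, *Ramp3* was 5.15, 10.2 and 2.93 CPM without a *Cd3e* UMI and 20.6, 9.64 and 4.07 CPM with 1. The 20.6 CPM rests on 28 UMIs in 143 cells.

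**Figure D1:**
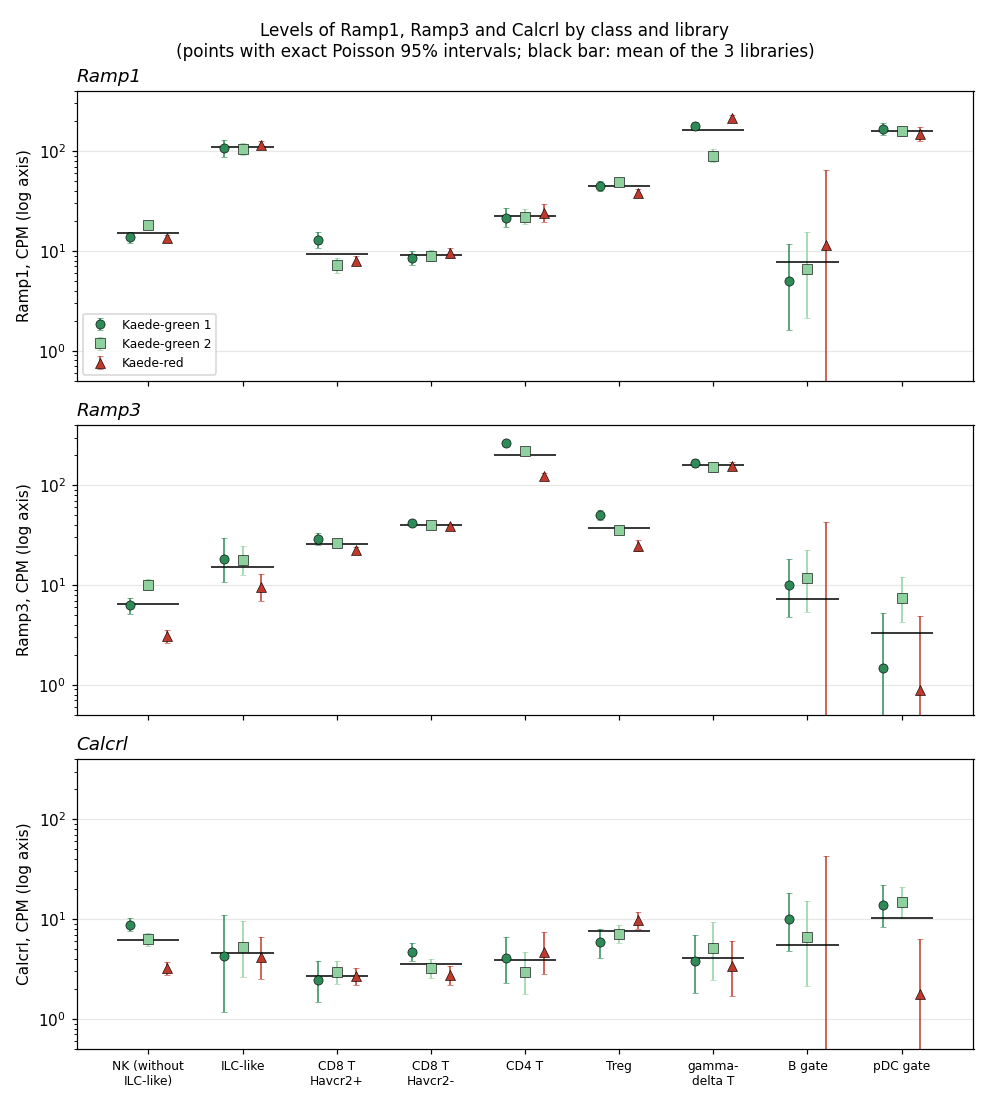
Level of *Ramp1*, *Ramp3* and *Calcrl* (CPM, log axis) in each class, with 1 point per library and bars for the exact Poisson 95% interval, in which a value of 0 is not drawn. Of the 7 lymphocyte classes *Ramp1* was highest in gamma-delta T and ILC-like cells (means 162 and 109 CPM), *Ramp3* in CD4 and gamma-delta T cells (202 and 159 CPM), and *Calcrl* stayed under 10 CPM in all 7 lymphocyte classes.

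*Ramp3*, the partner that gives an adrenomedullin receptor, followed another order, with the highest levels of the 7 classes in CD4 T cells and the lowest in NK cells. In CD4 T cells it was 263, 221 and 123 CPM, a mean of 202 ± 72.1 (SD, n = 3). In gamma-delta T cells it was 168, 154 and 156 CPM, a mean of 159 ± 7.56 (SD, n = 3). The Kaede-red CD4 T cells lay below every gamma-delta library, so these neighbors overlapped.

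After a wide gap, *Ramp3* stood at 41.6, 39.8 and 38.7 CPM in *Havcr2*- CD8 T cells and at 50.7, 35.3 and 24.8 CPM in Treg cells. *Havcr2*+ CD8 T cells held 29.0, 26.2 and 22.3 CPM and ILC-like cells 18.3, 17.9 and 9.61 CPM. NK cells were lowest of the 7, at 6.25, 10.1 and 3.06 CPM. The class means spanned 31.2-fold. Thus gamma-delta T cells were high in both partners, and ILC-like cells were high in *Ramp1* and low in *Ramp3*. CD4 T cells were high in *Ramp3* and in the middle of the order in *Ramp1*, at a mean of 22.5 CPM. The fitted log2 difference of Treg against CD4 T cells was -2.49 ± 0.12 (SE) for *Ramp3* and 0.93 ± 0.14 for *Ramp1*, and that of NK against CD8 T cells was -2.33 ± 0.25 and 1.31 ± 0.15. Both contrasts belong to the choice of the genes.

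*Calcrl*, the receptor both partners need, was low in every class. Treg cells held 5.84, 7.16 and 9.75 CPM, with a mean of 7.58 ± 1.99 (SD, n = 3), and NK cells 8.83, 6.30 and 3.22 CPM, with a mean of 6.12 ± 2.81. The other class means lay between 2.68 CPM in *Havcr2*+ CD8 T cells and 4.61 CPM in ILC-like cells. Every pair of neighbors overlapped, and the class means spanned 2.83-fold. The sums were small, with 4, 11 and 18 *Calcrl* UMIs in ILC-like cells and 10, 10 and 11 in gamma-delta T cells. The classes in which *Ramp1* was highest were therefore not set apart in *Calcrl* at this depth.

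Since CALCRL is best known from endothelium, endothelial genes were examined as markers of another cell type. In the 7 lymphocyte classes *Cdh5* ranged from 0 to 2.05 CPM, *Kdr* from 0.08 to 1.44 CPM and *Vwf* from 0 to 0.07 CPM. Of the other endothelial markers listed, *Ramp2* is given further below and *Pecam1* is not given for these classes. The cells of the plasmacytoid dendritic cell gate, by contrast, had *Cdh5* at 82.8 CPM and *Kdr* at 81.9 CPM beside *Calcrl* at 13.9, 14.9 and 1.77 CPM. *Pecam1*, *Vwf* and *Ramp2*, of the same marker list, are not given for these cells, and the source of their *Calcrl* was not tested. That gate, the *Siglech* gate named above, enters no comparison.

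*Ramp1* UMIs were found in 59.7% of gamma-delta T cells (95% exact binomial interval 56.2 to 63.0) and in 55.6% of ILC-like cells (51.2 to 60.0). The share was 25.2% in Treg cells, 12.6% in NK cells and 7.77% in *Havcr2*- CD8 T cells. *Ramp3* UMIs were found in 46.5% of CD4 T cells (43.8 to 49.2), in 41.4% of gamma-delta T cells and in 4.99% of NK cells. Cells of the 3 libraries were summed for these shares, and the intervals cover counting error only, not the spread between libraries. By library, *Ramp1* was found in 57.4%, 43.5% and 71.0% of gamma-delta T cells and in 39.4%, 49.1% and 65.9% of ILC-like cells. *Ramp3* was found in 54.9%, 46.5% and 33.9% of CD4 T cells. The B cell gate, with a median of 4315.5 UMIs a cell against 6573 in gamma-delta T, 7218 in CD4 T and 8731.5 in NK cells, was set beside them for free RNA. Its shares were 3.05% for *Ramp1* and 4.27% for *Ramp3*, so the *Ramp3* share of NK cells stood near that of B cells. Whether the B cell counts are free RNA was not tested. By level, *Ramp3* in NK cells was 6.25, 10.1 and 3.06 CPM. B cells held 9.97 and 11.8 CPM in the Kaede-green libraries, on 10 and 9 UMIs. The *Siglech* gate was lower than NK cells in each library, at 1.47, 7.47 and 0.88 CPM, on 2, 16 and 1 UMIs. *Calcrl* was found in 8.81% of Treg cells (7.68 to 10.1) and 5.96% of NK cells against 3.66% of B cells (1.90 to 6.30). Its shares in CD4 and gamma-delta T cells, 3.55% and 3.48%, were no higher than in B cells. The NK cells were also deeper than the B cells. By level, NK cells were not above B cells in *Calcrl*, at 8.83 and 6.30 CPM in the Kaede-green libraries against 9.97 and 6.57 CPM. These B cell levels rest on 10 and 5 UMIs, and Kaede-red held only 8 B cells.

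Cells differ in depth, so each was also thinned to 2000 UMIs. The leading classes stayed ahead, with *Ramp1* in 32.2% of gamma-delta T, 22.5% of ILC-like and 7.36% of Treg cells, and *Ramp3* in 27.2% of CD4 T and 24.9% of gamma-delta T cells. *Calcrl* was then at 2.03% in Treg cells and 1.22% in B cells (interval 0.33 to 3.09), which is close to the limit of what 2000 UMIs can show. The thinned *Calcrl* share of NK cells lay inside that B cell interval, as did the share of Treg cells.

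**Figure D2:**
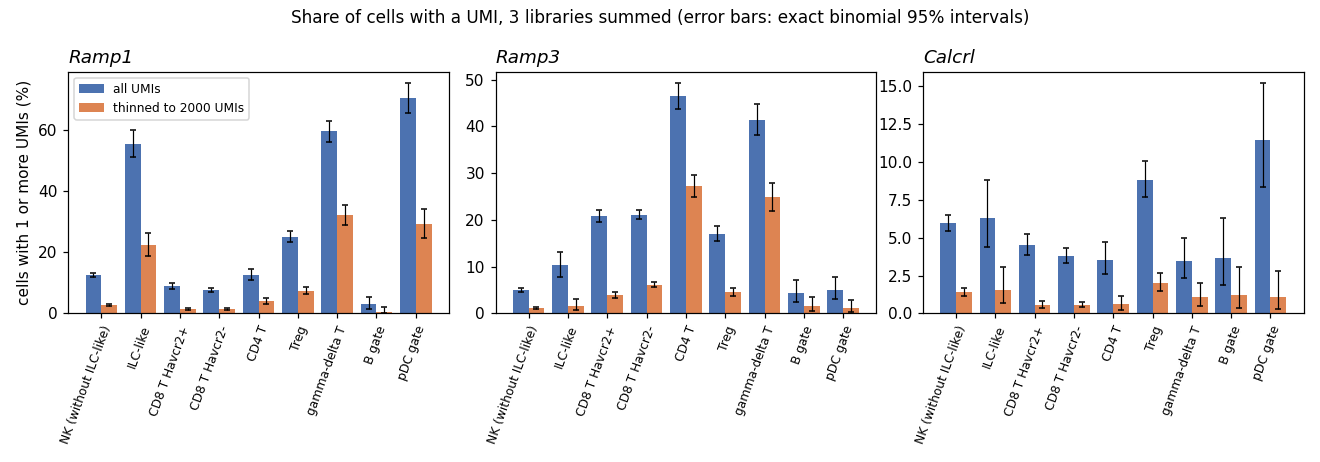
Share of cells (percent) with at least 1 UMI of each gene by class, over the libraries summed. Shares are for all UMIs and after thinning each cell to 2000 UMIs, with exact binomial 95% intervals of counting error. Thinning lowered every share, for *Ramp1* to 32.2% in gamma-delta T cells and from 70.8% to 29.2% in the *Siglech* gate (pDC), and for *Ramp3* to 27.2% in CD4 T cells.

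The UMIs were spread unevenly over cells. Among CD4 T cells, 222 cells (16.4%) with 5 or more *Ramp3* UMIs held 70.9% of the class's *Ramp3* UMIs. In gamma-delta T cells 87 cells (10.4%) held 61.7%, and in Treg cells 2.16% of cells held 48.0%. For *Ramp1*, cells with 5 or more UMIs were 9.07% of ILC-like and 9.24% of gamma-delta T cells, and these held 40.7% and 36.3% of the UMIs. A *Ramp3*-rich fraction thus made up most of the CD4 T cell level, whereas 1 Treg cell and 1 *Havcr2*- CD8 T cell reached 5 *Calcrl* UMIs.

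A functional receptor needs *Calcrl* and a partner in the same cell. Of the 1597 kept cells with a *Calcrl* UMI, 333 (20.9%) also had *Ramp1*, against 14.4% of cells without *Calcrl*, and 241 (15.1%) also had *Ramp3*, against 16.0%. In NK cells 80 of 474 *Calcrl*+ cells (16.9%, interval 13.6 to 20.6) had *Ramp1*, against 12.3% of *Calcrl*- cells, and in Treg cells 66 of 200 (33.0%) against 24.4%. In ILC-like cells 20 of 32 *Calcrl*+ cells (62.5%, interval 43.7 to 78.9) had *Ramp1*, against 55.2% of *Calcrl*- cells. Gamma-delta T cells went the other way, with 15 of 29 (51.7%, interval 32.5 to 70.6) against 60.0%. Both intervals cover the share of the *Calcrl*- cells. These counts are sums over the libraries, and the intervals cover counting error only. The libraries differ in the share of NK cells with *Ramp1*, at 7.92%, 12.1% and 17.0%. Deeper cells show more of any gene, and the part of depth and library in these shares was not tested. Of the 497 *Ramp1*+ gamma-delta T cells 231 (46.5%) also had *Ramp3*, which was found in 33.9% of the *Ramp1*- cells.

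Seen from the side of the transcripts, much of each gene came from large classes. With each cell counted once, gamma-delta T cells held 14.6% of all *Ramp1* UMIs but 2.10% of all UMIs, and ILC-like cells 8.78% of *Ramp1* with 1.95% of all UMIs. CD4 T cells held 19% of *Ramp3* with 3.67% of all UMIs. NK cells held 29.3% of *Calcrl*, close to their 27.6% of all UMIs. Cells in no class held 25.6% of *Ramp1*, 34.6% of *Ramp3* and 26.2% of *Calcrl* with 19.9% of all UMIs.

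The KG+ and KR+ libraries show how the levels stood with time in the tumor. A gene was counted as differing by color where both ratios of Kaede-red to the Kaede-green libraries had the same sign and exceeded the ratio between the Kaede-green libraries. In NK cells *Ramp3* and *Calcrl* were both lower in Kaede-red. For *Ramp3* the log2 ratios were -1.03 (95% interval -1.37 to -0.68) and -1.72 (-2.0 to -1.44) against 0.69 between the Kaede-green libraries, a mean of 2.60-fold lower. For *Calcrl* they were -1.46 (-1.76 to -1.15) and -0.97 (-1.28 to -0.66) against -0.49, a mean of 2.32-fold lower. The share of NK cells with a *Calcrl* UMI, by contrast, was alike in the libraries, at 6.05%, 6.0% and 5.85%. For *Ramp3* the shares were 2.51%, 7.99% and 4.55%, with Kaede-red between the Kaede-green libraries. Median depths of these cells were 6083, 8092 and 17515 UMIs, and the part of depth in the ratios was not tested. Neither gene in NK cells stood above the B cell gate by level in the Kaede-green libraries, where B cells held *Ramp3* at 9.97 and 11.8 CPM. The part of free RNA in these color differences was not tested. By the same criterion 39.6% of 14393 genes were lower and 19.2% higher in Kaede-red NK cells, and the median gene stood at -0.19 to each Kaede-green library, so a lower level by this criterion is common in these cells. *Calcrl* was also lower by it in cells in no class (-0.64 and -0.47) and in the *Siglech* gate (-2.69 and -2.78, with 2 UMIs in Kaede-red). *Ramp3* was so in cells in no class (-0.12 and -0.13). Over all kept cells both genes were lower, *Calcrl* at -0.82 and -0.55 and *Ramp3* at -0.94 and -0.77. The share of all genes was not computed for these groups. Class makeup also differed between libraries, with 474, 564 and 313 CD4 T cells, the class highest in *Ramp3*, among 10000, 11078 and 10865 kept cells. The part of makeup in the ratios over all kept cells was not tested.

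In CD4 T cells *Ramp3* was lower in Kaede-red, with log2 ratios of -1.10 (-1.26 to -0.94) and -0.85 (-1.0 to -0.70) against -0.25, a mean of 1.97-fold. The share of genes lower by this criterion in CD4 T cells was 22.9%. ILC-like cells had *Ramp3* ratios of -0.95 and -0.90 against -0.06 (20.4% of genes lower), and *Havcr2*+ CD8 T cells -0.38 and -0.23 against -0.15 (22.5% lower). In gamma-delta T cells the *Ramp3* ratios were -0.10 and 0.02 and in *Havcr2*- CD8 T cells -0.11 and -0.04, neither past the criterion (14.9% and 23% of genes were lower there). In Treg cells the ratios of -1.03 and -0.51 did not both exceed the -0.52 between the Kaede-green libraries.

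*Calcrl* in Treg cells was higher in Kaede-red, at log2 ratios of 0.73 (0.18 to 1.32) and 0.45 (0.03 to 0.86) against 0.28, a mean of 1.5-fold, where 21.4% of genes were higher. *Ramp1* in Treg cells was 1.24-fold lower, with ratios of -0.24 (-0.46 to -0.02) and -0.37 (-0.56 to -0.19) against 0.13, where 16.8% of genes were lower. In gamma-delta T cells *Ramp1* ratios of 0.25 and 1.25 did not both exceed the -1.0 between the Kaede-green libraries (15.9% of genes were higher). In ILC-like, CD4 T and *Havcr2*- CD8 T cells *Ramp1* passed the criterion with ratios of at most 0.16, all with intervals that include 0, where 12.6%, 22.9% and 23.3% of genes were higher. All of these are 1 Kaede-red library against 2, so color and library cannot be told apart.

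**Figure D3:**
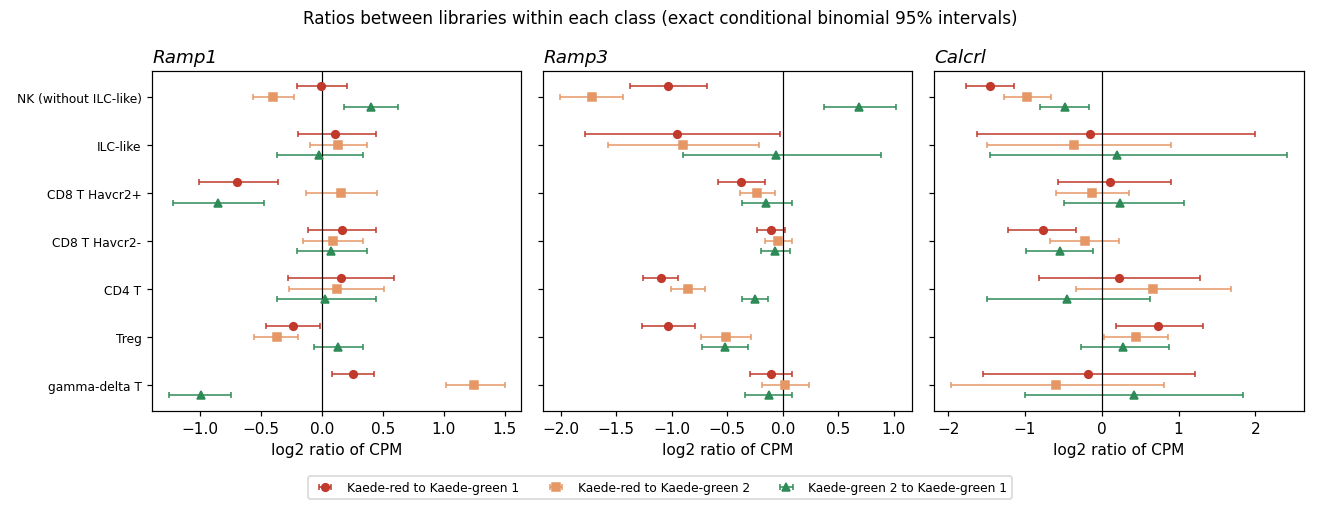
Log2 ratio of the Kaede-red level to each Kaede-green library for the 3 genes by class, with 95% intervals, beside the ratio between the Kaede-green libraries. *Ramp3* and *Calcrl* lay below 0 in NK cells (means -1.38 and -1.21), *Ramp3* below 0 in CD4 T cells (mean -0.98), and *Calcrl* above 0 in Treg cells (mean 0.59).

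The spread of gamma-delta T cells in *Ramp1* went with the makeup of the gate. Kaede-green 2, the lowest library, had the most cells without a *Trdc* UMI (32.1%, against 17.0% in Kaede-green 1 and 11.9% in Kaede-red) and the most that also met the CD8 gate (24.4%, against 18.7% and 14.9%). In cells with *Trdc*, *Ramp1* was 237, 148 and 266 CPM, and in cells without it 10.5, 21.1 and 31.0 CPM. *Ramp3* was 210, 265 and 196 CPM with *Trdc* and 43.6, 21.1 and 14.1 CPM without. Both genes were thus higher in the *Trdc*+ cells of every library, and Kaede-green 2 remained the lowest in *Ramp1* there. The splits of this paragraph and the next were chosen after the data were seen and are given without a test.

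Within gamma-delta T cells, both partners were higher in each library in cells with *Il17a*, the gene of the cytokine IL-17A. *Ramp1* was 281, 192 and 299 CPM in *Il17a*+ cells and 124, 63.0 and 139 CPM in the others, and *Ramp3* was 237, 262 and 200 CPM against 129, 125 and 117 CPM. Cells without a *Trdc* UMI, which were low in both genes, were not left out of this split. Their part in these differences was not tested. In CD4 T cells *Ramp3* was 328, 314 and 262 CPM with *Cd40lg*, the gene of the helper ligand CD40L, and 235, 190 and 101 CPM without it. The Kaede-red library was lowest on both sides of that split.

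**Figure D4:**
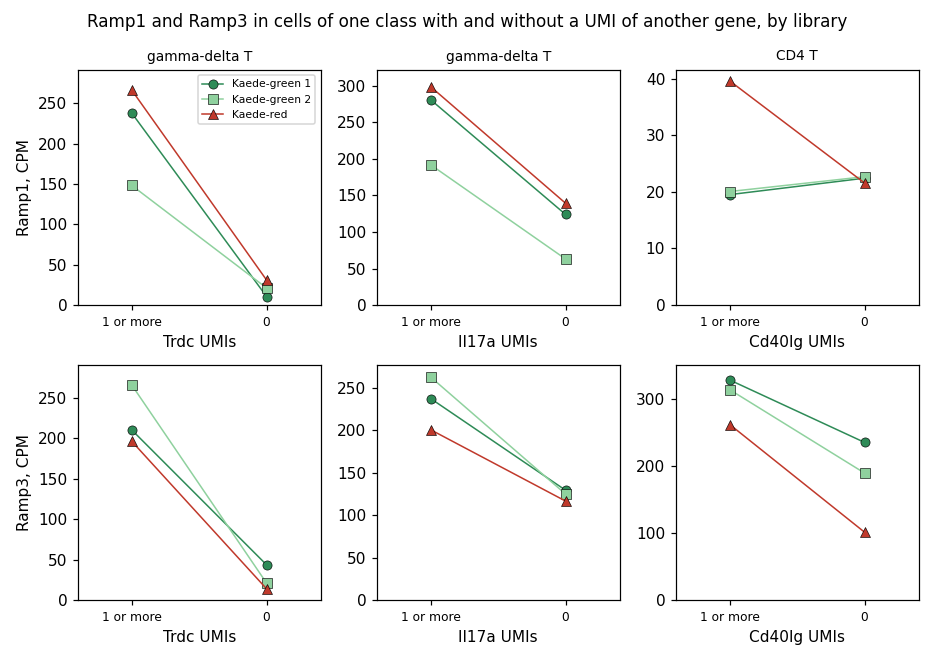
Levels (CPM) of *Ramp1* and *Ramp3* on the 2 sides of the splits of gamma-delta T cells by *Trdc* and *Il17a* and of CD4 T cells by *Cd40lg*, with a line joining the 2 sides of each library. *Ramp3* in CD4 T cells was higher with *Cd40lg* in all 3 libraries (328, 314 and 262 CPM against 235, 190 and 101 CPM).

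The first of the 3 tested splits set NK cells with *Itga1*, which encodes CD49a and marks tissue-resident NK cells, against those with *Itgam*, which encodes CD11b and marks mature circulating NK cells. *Calcrl* was 5.77, 5.34 and 2.40 CPM in *Itga1*+ cells and 10.7, 11.4 and 4.77 CPM in *Itgam*+ cells, lower in all 3 libraries. The 4.77 CPM of Kaede-red rests on 3 UMIs, and its interval of 0.98 to 13.95 CPM covers the other side. The log2 difference was -0.91 ± 0.30 (SE, adjusted p = 0.0372 in edgeR's quasi-likelihood model, adjusted after Benjamini and Hochberg, as are all edgeR values here). By this test 33% of 9823 genes passed, and the call is lost with DESeq2 (-0.91, adjusted p = 0.187), without the library block (-1.17, edgeR adjusted p = 0.0572) and without Kaede-green 1 or Kaede-green 2 (edgeR adjusted p = 0.175 and 0.232). *Ramp1* stood at 20.5, 20.5 and 12.6 CPM against 13.0, 17.8 and 9.55 CPM, which did not pass (log2 0.49 ± 0.20, edgeR adjusted p = 0.0821). *Ramp3* was 3.93, 9.34 and 2.84 CPM against 2.67, 13.1 and 0 CPM (log2 0.04 ± 0.40, edgeR adjusted p = 0.951), and at the depth of that 0 a limit of 3 UMIs is 4.77 CPM. The *Itga1*+ cells were deeper, at medians of 9446, 11679 and 25056 UMIs against 5345, 6722 and 6658 UMIs, and the Kaede-red library had only 75 *Itgam*+ cells. There were 298, 443 and 1415 *Itga1*+ cells against 426, 303 and 75 *Itgam*+ cells. The split thus goes with color, which had a part in the choice of the genes, so these tests are not independent of that choice. *Calcrl* in NK cells as a whole also stood near the B cell gate in the Kaede-green libraries.

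Treg cells were split by *Klrg1*, a marker of differentiated effector Treg cells. *Ramp3* was 27.5, 22.9 and 25.2 CPM in *Klrg1*+ cells against 75.5, 48.6 and 24.2 CPM in *Klrg1*- cells, lower in both Kaede-green libraries and alike in Kaede-red. Its log2 difference was -0.88 ± 0.21 (SE, edgeR adjusted p = 0.0296), in a comparison where 7.17% of 10733 genes passed. The call is lost with DESeq2 (-0.85, adjusted p = 0.377), without the block (-0.99, edgeR adjusted p = 0.266) and without Kaede-green 1 or 2 (-0.60 and -0.73, edgeR adjusted p = 0.306 and 0.339). It was larger without Kaede-red (-1.28, edgeR adjusted p = 6.62e-06). *Ramp1* pointed the other way, at 52.5, 57.2 and 39.1 CPM against 37.2, 41.2 and 36.6 CPM, but did not pass (log2 0.34 ± 0.10, edgeR adjusted p = 0.0684). *Calcrl* was 7.94, 8.79 and 10.5 CPM against 3.59, 5.40 and 8.47 CPM, higher in 3 of 3 libraries without passing the test (log2 0.62 ± 0.22, edgeR adjusted p = 0.125).

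*Havcr2*- CD8 T cells were split by *Tcf7*, the gene of TCF-1, a transcription factor of naive and stem-like T cells. *Ramp1* was 10.5, 11.5 and 13.0 CPM in *Tcf7*+ cells and 6.78, 6.92 and 8.07 CPM in *Tcf7*- cells, with no overlap between the sides. The log2 difference was 0.74 ± 0.11 (SE, edgeR adjusted p = 0.00103), and 22.1% of 11690 genes passed in this comparison. This call was lost without the block (0.73, edgeR adjusted p = 0.0841) and kept under the 8 other alternatives. In the Kaede-green libraries the B cell gate held *Ramp1* at 4.98 (interval 1.62 to 11.6) and 6.57 CPM (2.13 to 15.3), on 5 UMIs each. Those intervals cover both sides of the split in these libraries, and the part of free RNA was not tested. *Ramp3* was 47.4, 47.3 and 39.2 CPM against 36.4, 33.5 and 38.4 CPM (log2 0.35 ± 0.09, edgeR adjusted p = 0.0188). That call is lost with DESeq2 (adjusted p = 0.101), without the block (edgeR adjusted p = 0.222) and without Kaede-green 2 (0.24, edgeR adjusted p = 0.10). *Calcrl* did not pass (log2 0.26 ± 0.19, edgeR adjusted p = 0.378). *Tcf7*+ cells had median depths of 10372, 11414.5 and 13177 UMIs against 7551, 8649 and 10819 UMIs. These p-values measure only the spread between 3 libraries, which differ in color.

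**Figure D5:**
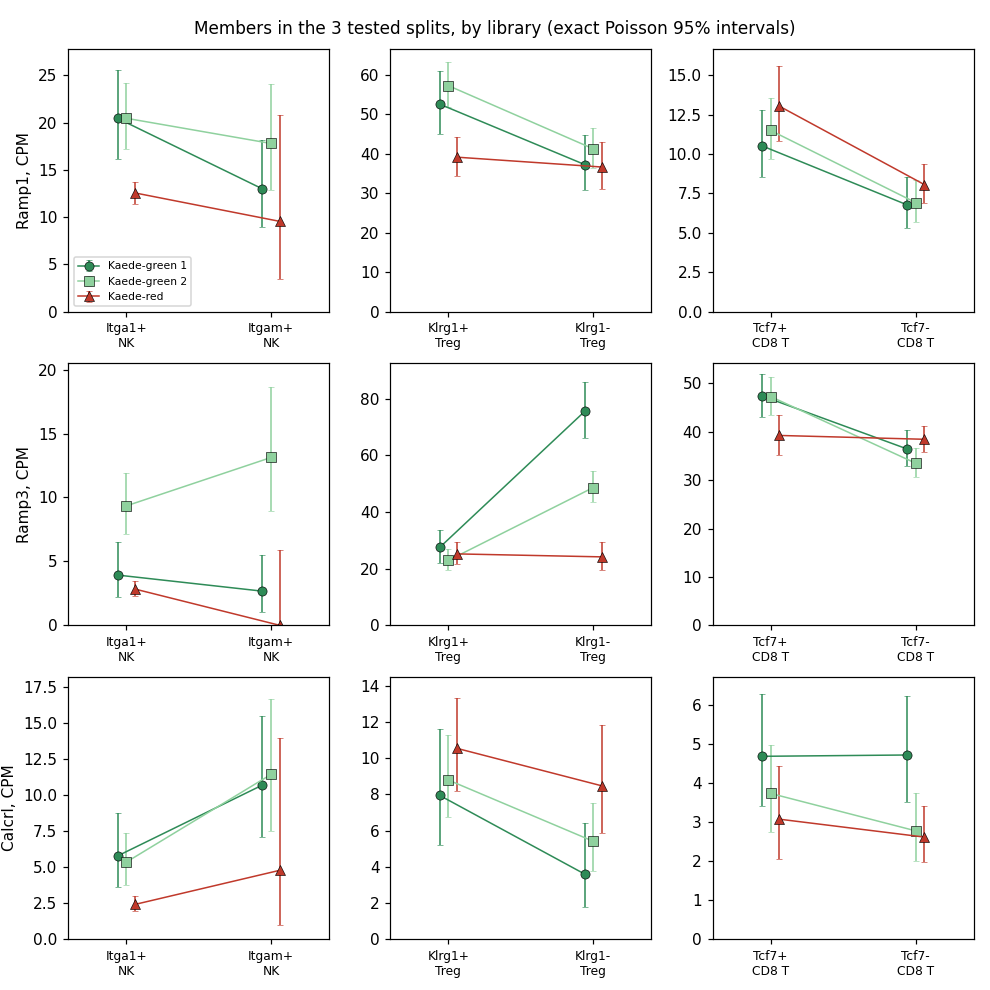
Levels (CPM) of the 3 genes on both sides of the tested splits of NK, Treg and *Havcr2*- CD8 T cells, with a line joining the sides of each library. *Ramp1* was higher in *Tcf7*+ cells in all 3 libraries (log2 0.74), *Calcrl* lower in *Itga1*+ NK cells in all 3 (log2 -0.91), and *Ramp3* lower in *Klrg1*+ Treg cells in the Kaede-green libraries (log2 -0.88 over all).

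Genes around the receptors were taken as 6 lists with 62 genes: ligands, other receptor partners, signaling machinery from Gs to CREB, brakes such as phosphodiesterases, genes induced by cAMP, and other receptors of the kind. *Calca*, which encodes CGRP and calcitonin, was highest in gamma-delta T cells (mean 23.8 CPM, 204 UMIs) and was 13.7 CPM in Treg cells and 7.13 CPM in NK cells. *Adm*, the adrenomedullin gene, stayed at or under 1.27 CPM and *Calcb*, of the second CGRP, at or under 0.16 CPM, and *Iapp* had 0 UMIs. Of the partners, *Ramp2* lay between 0.08 and 0.51 CPM, *Calcr*, the calcitonin receptor, had 4 UMIs in all 7 classes, and *Crcp*, a CGRP receptor component, was even at 17.4 to 22.7 CPM.

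In *Itga1*+ against *Itgam*+ NK cells, 18 of 41 listed genes were lower and 0 higher by edgeR, beside 15.6% and 17.3% of all genes. At an unadjusted p under 0.05 edgeR had 22 lower and 3 higher, and DESeq2 called 15 lower and 0 higher. Of the 10 cAMP-induced genes 8 were lower, with a median log2 of -0.86 against -0.02 over all genes. Among them were the nuclear receptor genes *Nr4a3* (-1.04 ± 0.10) and *Nr4a1* (-1.03 ± 0.11) and the cAMP response modulator *Crem* (-0.86 ± 0.08). Also lower were *Adora2a*, an adenosine receptor gene (-1.68 ± 0.13), *Ptger4*, the prostaglandin E2 receptor EP4 (-1.83 ± 0.21), and *Creb1* (-0.72 ± 0.13). All edgeR adjusted p-values of these genes were at most 0.00156. *Areg*, the only cAMP-induced gene with a positive value (0.39 ± 0.31), did not pass. The lower side of these genes is the side of deeper cells and of lower *Calcrl*, a call that was lost under several alternatives. Neither the part of depth nor any tie to *Calcrl* was tested. Since cAMP was not measured, the name of the list does not give the signal behind these lower levels.

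In *Klrg1*+ against *Klrg1*- Treg cells, 3 of 42 listed genes were higher and 6 lower (3.48% and 3.69% of all genes), and DESeq2 called 2 higher and 3 lower. *Calca* was higher, by log2 1.48 ± 0.17 (edgeR adjusted p = 0.000803), as was the growth factor gene *Areg* (0.58 ± 0.07). The phosphodiesterase genes *Pde3b* (-0.85 ± 0.16) and *Pde7a* (-0.79 ± 0.12) and *Rgs2* (-0.48 ± 0.06), a brake on G protein signaling, were lower. In *Tcf7*+ against *Tcf7*- CD8 T cells 12 of 46 were higher and 11 lower (10.8% and 11.3% of all genes), and DESeq2 called 3 higher and 7 lower. The VIP receptor genes parted, with *Vipr1* higher (1.39 ± 0.28) and *Vipr2* lower (-1.62 ± 0.39). *Rapgef4*, the cAMP sensor EPAC2 gene, was higher (1.36 ± 0.30), and *Areg* lower (-1.30 ± 0.10, edgeR adjusted p = 1.31e-05).

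Between classes, Treg against CD4 T cells had 2 of 43 listed genes higher and 9 lower (4.59% and 5.1% of all genes, 9.69% in both directions). Of 13 brakes 5 were lower, among them *Pde3b* (-1.39 ± 0.15) and *Pde7a* (-1.19 ± 0.17), and *Areg* was higher (1.89 ± 0.15). ILC-like against *Eomes*+ NK cells had 3 of 45 higher and 2 lower (2.64% and 2.31% of all genes, 4.95% in both directions). Of these *Areg* (1.53 ± 0.26), *Arrb1* (1.13 ± 0.22) and *Rgs2* (0.64 ± 0.10) were higher, and *Nr4a2* (-0.55 ± 0.10) and *Adora2a* (-0.82 ± 0.16) lower. NK against CD8 T cells had 10 of 49 higher and 8 lower (28.9% of all genes passed), with *Grk5*, a receptor kinase gene, higher (2.49 ± 0.18) and *Rapgef4* lower (-6.07 ± 0.61). *Havcr2*+ against *Havcr2*- CD8 T cells had 8 of 49 higher and 14 lower (27.2% passed), with *Vipr1* lower (-1.81 ± 0.35) and *Adora2b*, another adenosine receptor gene, higher (1.29 ± 0.27). These lists were drawn up with results of these data known.

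The genes most like each member were named by Pearson's r of log2 levels over 21 sums, 7 classes in 3 libraries, among 6480 genes, as a description, since the sums share libraries and depth. For *Ramp1* they were *Ckb* (0.953), *Plcb4* (0.947), *Tmem176a* (0.941), *Tmem176b* (0.938) and *Arl6ip6* (0.908). *Ckb*, the brain-type creatine kinase gene, followed it class by class, at means of 120 CPM in gamma-delta T cells, 57.9 CPM in ILC-like cells and 28.4 CPM in Treg cells. *Ramp3* was most like *Ralgps2* (0.936), *Ppp1cc* (0.921), *Mllt3* (0.904), *Stat5b* (0.901) and *Abhd8* (0.895), and *Calcrl*, with few UMIs a sum, most like *Gsdmd* (0.814). These values use log2(CPM + 1). With log2(CPM + 10), *Tspan14* (0.894) and *Emp1* (0.891) were named for *Ramp3* instead of *Stat5b* and *Abhd8*.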

How the data were processed

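The members, gene lists, splits and tests were chosen with earlier results of these data known. As the authors deposited them, the values are UMI counts of barcodes called by Cell Ranger (6.1.2 in the submitters' processing notes, 6.0.1 in the file header) on mm10, not normalized. Groups came from the labels, and 0 columns were left without a sample. The cell filter was 1000 to 6000 genes and less than 7.5% of UMIs from mitochondrial genes. Doublets were not removed, since Scrublet's automatic threshold failed, and leaving out the 5% of cells with the highest scores was an alternative.

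UMIs were summed per class and library in Python 3.11.15 (numpy 2.4.6, scipy 1.17.1, scanpy 1.11.5). Levels carry exact Poisson and shares exact Clopper-Pearson 95% intervals, and ratios add 0.5 to each count. The 6 sums of a comparison were tested with edgeR 4.0.16 (R 4.3.3; TMM factors, its low-count filter, Benjamini-Hochberg adjustment, threshold 0.05), with the library as a block, since both sums of a pair come from the same library. Gate genes were left out of each comparison. DESeq2 1.42.0, other factors, no filter, no block, stricter gates, all barcodes and leaving out each library were alternatives. The fits were tested on simulated data. Named were the members, up to 3 listed genes per list and direction with the smallest p, further listed genes by their levels, and the 5 genes most like each member among those with 20 CPM in some sum. Adrenergic receptor genes are not reported here.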

Additional observations from a re-analysis of the deposited data

Results flagged for a closer look

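*Calcrl* stood lower in Kaede-red than in both Kaede-green libraries in NK cells (mean log2 ratio -1.21) and higher than in both in Treg cells (0.59). The classes lie on opposite sides, and the difference between them was not tested. Median depths over the libraries were 6083, 8092 and 17515 UMIs in NK cells and 10686, 11113 and 8324 UMIs in Treg cells. The part of depth was not tested.

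Between ILC-like and *Eomes*+ NK cells, *Calcrl* had log2 ratios of -0.97 and -0.12 in Kaede-green 1 and Kaede-green 2 and of 0.46 in Kaede-red, with 4, 11 and 18 UMIs in the ILC-like cells. *Ramp3* between *Klrg1*+ and *Klrg1*- Treg cells had -1.45 and -1.08 in the Kaede-green libraries and 0.058 in Kaede-red. Neither difference between the colors was tested, and with 1 Kaede-red library color and library cannot be told apart.

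The kept cells in no class, which enter no comparison, carried all 3 genes, at mean levels of 31.7 CPM for *Ramp1*, 68.5 CPM for *Ramp3* and 6.12 CPM for *Calcrl*.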

How the results depend on the processing

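The levels were described from 3 libraries, and *Calcrl* was limited by its few UMIs. With each cell weighted alike, *Ramp1* in gamma-delta T cells was 227.2 CPM and *Ramp3* in CD4 T cells 303 CPM, the latter 288 CPM with stricter gates. Equal weights moved 5 of 21 class levels by more than their SD and stricter gates 10 of 21. Thinning to 2000 UMIs moved all 21 shares, to 32.2% for *Ramp1* in gamma-delta T cells, 27.2% for *Ramp3* in CD4 T cells and 2.03% for *Calcrl* in Treg cells. A gate of 1 or more *Trdc* UMIs, chosen after seeing the data, gave 224 CPM of *Ramp3* in gamma-delta T cells.

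For *Ramp3* in *Itga1*+ against *Itgam*+ NK cells the sign turned without the block (-0.23), without Kaede-green 1 (-0.13) and without Kaede-red (-0.14), and the range with a library left out was -0.14 to -0.13, with no value without Kaede-green 2, where its counts were too few for the filter. *Ramp1* in that split passed without the highest Scrublet scores (0.68, edgeR adjusted p = 0.0444), and in *Klrg1*+ Treg cells with no filter (0.34), with all barcodes (0.38) and without Kaede-red (range 0.27 to 0.45). Lost calls, with DESeq2 and then without the replicate block, were *Calcrl* in NK cells (-0.91 and -1.17, range with a library left out -0.98 to -0.84), *Ramp3* in Treg cells (-0.85 and -0.99, range -1.28 to -0.60) and *Ramp3* in CD8 T cells (0.35 and 0.36, range 0.24 to 0.51). *Ramp1* in CD8 T cells was lost without the block alone (0.73). The cause of these changes was not tested.

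Without the block, the genes called were 108 for ILC-like against *Eomes*+ NK cells (553 with it), 1735 for NK against CD8 T (3933), 35 for *Havcr2* (3472), 701 for Treg against CD4 T (1070), 7 for *Klrg1* (770) and 46 for *Tcf7* (2585). DESeq2 called 2113 for *Havcr2*, 2022 for *Itga1* (3238 by edgeR), 260 for *Klrg1* and 1123 for *Tcf7*. With no filter, 852, 1917 and 1225 genes were called for ILC-like, Treg and *Klrg1*. With a library left out, counts ranged from 410 to 1014 for ILC-like, 2391 to 5247 for NK against CD8 T, 2057 to 3698 for *Havcr2*, 476 to 3550 for Treg, 1683 to 3492 for *Itga1*, 72 to 932 for *Klrg1* and 1948 to 2144 for *Tcf7*.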
